A study of Homo sapiens with 20 samples.

Results

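Mucins are large glycoproteins whose extracellular part is densely covered with O-linked glycans, and the transmembrane mucins anchor this coat in the apical membrane of epithelial cells. Their extracellular part can be cut off and shed, and their short cytoplasmic tails bind kinases, catenins and actin linkers. In glandular epithelium such as that of the breast they form the glycocalyx of the luminal surface, and several are followed as markers of carcinomas. The genes described here are the transmembrane mucins MUC1, MUC4, MUC13, MUC15, MUC16 and MUC20, which were chosen by name, with earlier results of these data known. They are 6 of the 60271 genes in the deposited tables, and 5 of them passed the filter on low counts.

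The cells were MDA-MB-468, a triple-negative breast cancer line with an amplified EGFR gene, in which epidermal growth factor (EGF) starts an epithelial to mesenchymal transition. After seeding and serum starvation, the control was left without EGF, and the other 4 groups received EGF at 50 ng/mL and were harvested after 12, 24, 48 or 72 h. Each group has 4 biological replicates, which gives 20 RNA-seq libraries. All groups, the control included, are this 1 established cell line and were serum-starved. Each time point was compared with the same 4 control libraries, so the comparisons with the control are not independent of each other. There is no separate control for each time, and the harvest time of the control is not given in the sources used here. Effects of EGF and of time in culture therefore cannot be told apart. The libraries held 15611961 to 25856953 counts each, so that 3 counts, used here as the floor of detection, correspond to 0.116 to 0.192 CPM, the usual scaling of counts to the total of their library. Levels are CPM with TMM scaling factors, given as the mean ± SD of the 4 libraries of each group. Log2 fold changes and adjusted p values come from edgeR's quasi-likelihood test over all 16522 genes tested, with Benjamini-Hochberg adjustment and a threshold of 0.05, and SE is the standard error of the log2 fold change.

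All 8 epithelial markers of the line, EPCAM, CDH1 and keratins among them, were detected in every group. Their summed level ranged from 5156 to 5701 CPM in the control and from 20164 to 21046 CPM at 12 h. At 72 h it ranged from 8332 to 9107 CPM. KRT18 and EGFR were the main contributors. EPCAM had means of 181, 215 and 144 CPM in these groups, and CDH1 had 127, 181 and 90.6 CPM. The mesenchymal genes VIM and FN1 had means of 20.3 and 17.8 CPM in the control and 165 and 256 CPM at 72 h, while SNAI2 had no count in any library. Of the leukocyte markers, PTPRC stayed at or below a mean of 0.184 CPM, but the sum of the list ranged from 4.22 to 5.13 CPM in the control and from 29.4 to 34.2 CPM at 72 h, of which CD68 had a mean of 26.7 CPM. Fibroblast markers summed to at most 15.5 CPM and endothelial markers to at most 6.16 CPM. Mitochondrial genes held 9.03 to 12.6% of the counts in the control and 12.3 to 16.4% at 72 h, and the part of this shift in the values below was not tested. In bulk RNA, fewer cells that express a gene and less RNA of it per cell cannot be told apart.

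The 6 genes lie on 4 chromosomes (GRCh38, gene models of GENCODE 29). MUC1 (ENSG00000185499) covers chr1:155185824-155192916 on the minus strand. MUC15 (ENSG00000169550) covers chr11:26559033-26572233 on the minus strand, where 4.92% of its exon bases lie opposite exons of ANO3. MUC16 (ENSG00000181143), with 84 merged exons and a longest transcript of 43816 bases, covers chr19:8848844-8981342 on the minus strand. MUC13 (ENSG00000173702) covers chr3:124905442-124953819 on the minus strand. MUC20 (ENSG00000176945, chr3:195720882-195741123, plus strand) and MUC4 (ENSG00000145113, chr3:195746765-195812277, minus strand) are neighbours that point towards each other, with 5641 bases between their ends. On the same strand as MUC20 lies the long noncoding transcript MUC20-OT1, which shares 42.8% of the exon bases of MUC20.

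Tandem repeats encode the mucin domains of MUC1, MUC4 and MUC20, and a read of 75 bases from inside them can fit several copies. The commonest repeat unit of each gene is shown for this reason. That of MUC1 has 60 bases and stands in 19 identical copies, or 40 copies with up to 6 mismatches, in exon 2 (the copy shown lies at chr1:155191821-155191880). That of MUC4 has 48 bases, with 14 identical copies and 70 with up to 5 mismatches, also in exon 2 (chr3:195788035-195788082). That of MUC20 has 57 bases and 10 identical copies, of which the one shown lies at chr3:195725148-195725204, and also occurs in the pseudogene MUC20P1. All 3 units are coding sequence, written 5′ to 3′ on the strand of the gene.
MUC1 repeat unit: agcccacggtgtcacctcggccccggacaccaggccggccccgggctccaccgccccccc
MUC4 repeat unit: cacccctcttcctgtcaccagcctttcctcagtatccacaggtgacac
MUC20 repeat unit: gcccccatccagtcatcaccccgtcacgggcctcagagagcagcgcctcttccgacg
The unit is in 3 of the 29 annotated transcripts of MUC1, 10 of 22 of MUC4 and 4 of 8 of MUC20.

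The share of each longest transcript that a 75-base window identifies differed widely between the members. Of the windows, 99.6% were unique in MUC16, 98.7% in MUC15 and 100% in MUC13. In MUC4 82.4% and in MUC1 62.9% were unique, the others being repeated within the same gene. In MUC20 35.7% were unique, and 64.3% also occurred in MUC20P1 or MUC20-OT1. Values of MUC20 therefore depend on how the reads of shared sequence were divided, which is not given in the sources used here.

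**Figure D1:**
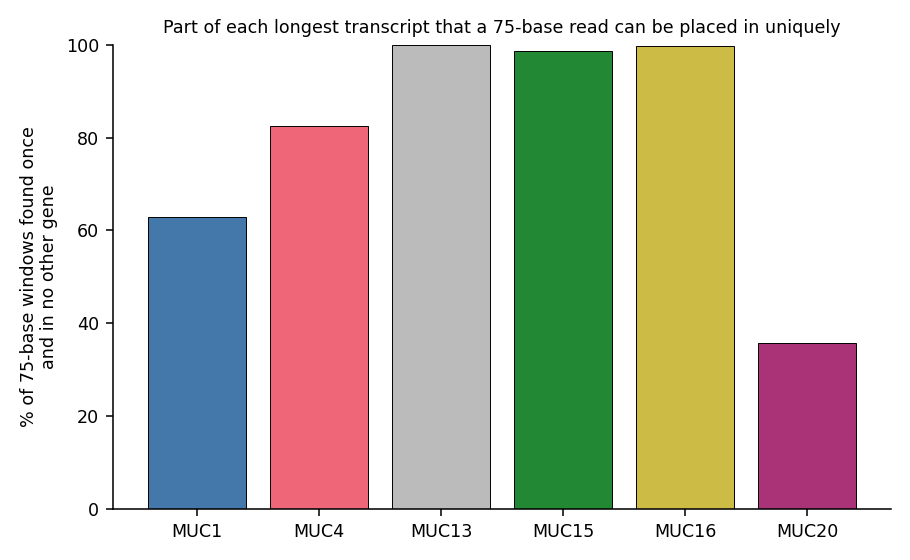
The bars give, for each mucin gene, the percentage of all 75-base windows of its longest annotated transcript that occur once in that transcript and in no transcript of another gene. MUC20 is lowest at 35.7% and MUC1 next at 62.9%, while MUC13, MUC15 and MUC16 are at 98.7% or above.

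The window of 250 bases upstream of the start is shown for MUC1, MUC4 and MUC16, the members that passed against the control and have a window in the RefSeq table (GRCh38.p14). In MUC1 (chr1:155192916-155193165, minus strand), capitals mark CACCTG, an E-box recognised by the SNAI and ZEB repressors of epithelial genes, and GGGCGG, the GC box of SP1. In MUC4 (chr3:195811930-195812179, minus strand) and MUC16 (chr19:9065752-9066001, minus strand), capitals mark CCGCCC, the GC box on the other strand.
MUC1 promoter window: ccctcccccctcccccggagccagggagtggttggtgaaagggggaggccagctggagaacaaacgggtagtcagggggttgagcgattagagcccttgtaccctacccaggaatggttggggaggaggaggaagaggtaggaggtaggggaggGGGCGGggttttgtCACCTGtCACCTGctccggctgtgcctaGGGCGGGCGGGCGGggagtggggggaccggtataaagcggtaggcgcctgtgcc
MUC4 promoter window: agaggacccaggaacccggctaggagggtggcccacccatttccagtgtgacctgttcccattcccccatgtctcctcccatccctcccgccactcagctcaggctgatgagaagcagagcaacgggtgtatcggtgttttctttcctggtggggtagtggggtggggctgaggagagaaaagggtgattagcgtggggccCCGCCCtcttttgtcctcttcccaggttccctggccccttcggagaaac
MUC16 promoter window: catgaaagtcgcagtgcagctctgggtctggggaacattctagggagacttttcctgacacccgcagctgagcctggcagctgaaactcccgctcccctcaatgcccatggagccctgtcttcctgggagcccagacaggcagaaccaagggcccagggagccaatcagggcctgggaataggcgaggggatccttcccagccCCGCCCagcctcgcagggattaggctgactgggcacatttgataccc
The E-box with the letters CACCTG, the AP-1 site with the letters TGANTCA and the GC box with the letters GGGCGG were each searched on both strands. MUC1 holds 2 CACCTG, at -82 and -75 from the start, and 4 GGGCGG, of which 3 overlap each other. Of 35116 such windows, 17.5% hold at least 1 CACCTG and 2.53% at least 2, 42.6% hold GGGCGG and 6.57% hold TGANTCA. The window of MUC13 holds 1 TGAGTCA, at -178. The start of the MUC16 window lies outside the GENCODE 29 gene, and a second RefSeq start of MUC16 has 1 CAGGTG, which is CACCTG on the other strand, and 1 TGAATCA. MUC15 and MUC20 have no window in this table. These matches describe the sequence only, and binding was not measured here.

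Against the control, 4 of the 5 tested members passed the threshold at each of the 4 time points. At 12 h, 1 was higher (MUC16) and 3 were lower (MUC1, MUC15, MUC20), where 69.4% of all genes tested passed, 32.9% as higher and 36.5% as lower. At 24 h the split was the same, against 58.8% of all genes, 29.2% higher and 29.6% lower. At 48 h, 3 were higher (MUC4, MUC16, MUC20) and 1 was lower (MUC1), against 45.8% of all genes, 24.0% higher and 21.8% lower. At 72 h the split was that of 48 h, against 61.6% of all genes, 30.6% higher and 31.0% lower. MUC4 is counted here and in the medians below, although it passed the filter on low counts only through its libraries of 48 and 72 h. With this many genes called, the count of members passing says little, and the sizes and time courses are what the data add. The median log2 fold change of the 5 members was -0.66, -0.79, 1.17 and 1.41 at the 4 times, beside medians of -0.05, -0.01, 0.01 and -0.01 over all genes tested. Each median of the members is the value of a single gene, MUC1 at 12 h and MUC20 at the later times. The median at 12 h includes MUC4, with 8 counts against 5 in the control.

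**Figure D2:**
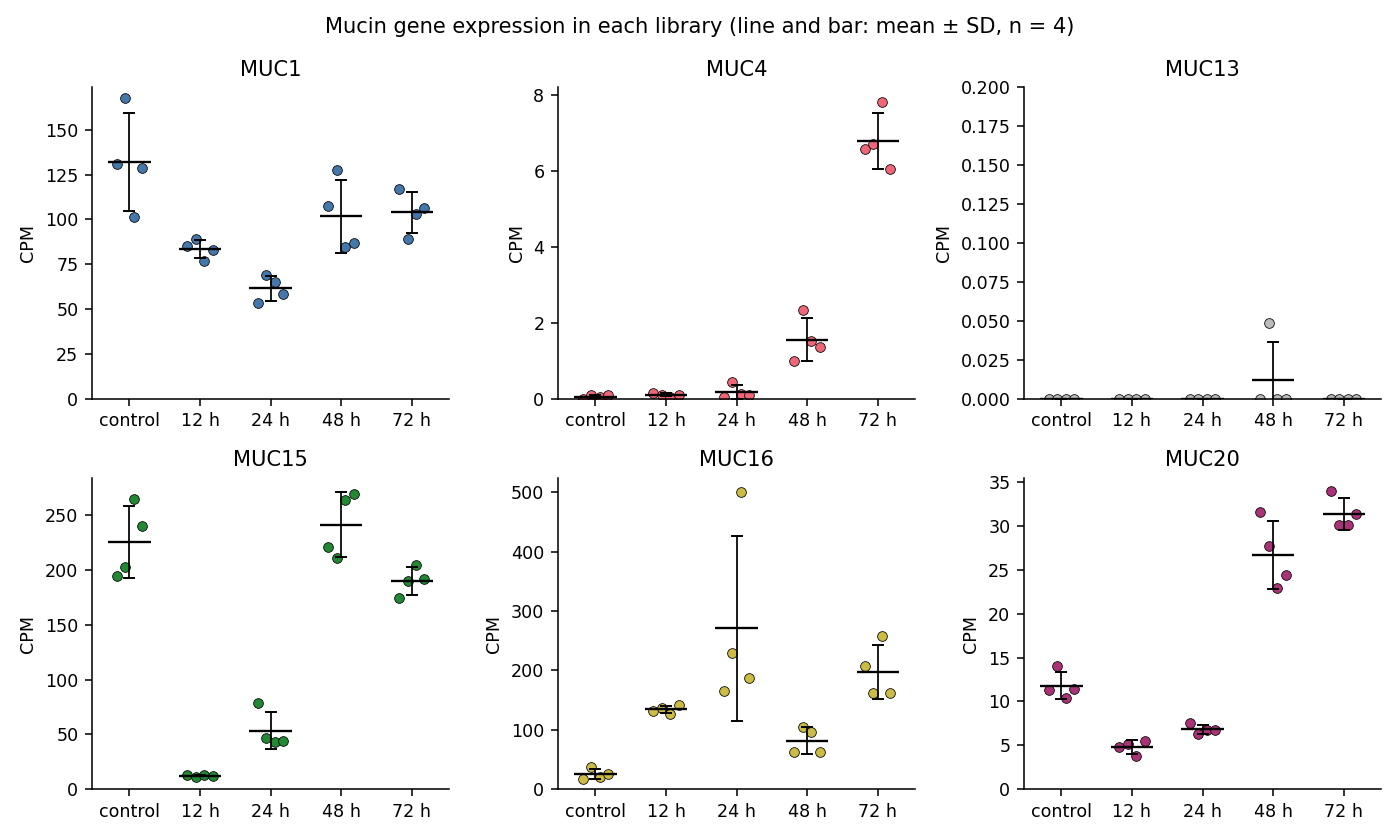
Each panel shows 1 mucin gene, with the CPM of every library as a point over the control and the 4 times in EGF, and the mean with its SD (n = 4) as a line and bar; each panel has its own linear axis from 0. MUC15 drops to 12.4 CPM at 12 h and is back at 241 CPM at 48 h, MUC4 appears at 48 and 72 h, and 1 library at 24 h carries MUC16 at 500.1 CPM.

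MUC1, the widely expressed mucin whose cytoplasmic tail binds beta-catenin and receptor tyrosine kinases, fell early and rose again after 24 h. The 4 control libraries held 131, 168, 102 and 129 CPM, with a mean of 132 ± 27.3 CPM. At 12 h the libraries held 85.3, 89.1, 76.6 and 83.0 CPM (83.5 ± 5.25), all below all controls, with a log2 fold change of -0.66 (SE 0.134, adjusted p = 0.000145). At 24 h they held 53.6, 68.9, 65.1 and 58.4 CPM (61.5 ± 6.79), again with no overlap. This was the lowest level of the course, at a log2 fold change of -1.11 (SE 0.136, adjusted p = 3.64e-07). From 24 to 48 h MUC1 rose by 0.73 on the log2 scale (adjusted p = 0.000134), to 107, 128, 84.8 and 86.7 CPM, of which 2 lay below all controls. At 72 h the libraries held 117, 89.3, 103 and 106 CPM, and 1 lay below all controls. The remaining differences from the control were small, with log2 fold changes of -0.38 (SE 0.133, adjusted p = 0.0232) at 48 h and -0.35 (SE 0.133, adjusted p = 0.0286) at 72 h. Both of these calls were lost without control replicate 2, the highest control, where the log2 fold changes were -0.24 (adjusted p = 0.115) and -0.21 (adjusted p = 0.153). They were also lost without 48 h replicate 3 or 4 (-0.30 and -0.31) and without 72 h replicate 2 or 3 (-0.28 and -0.34), respectively. Without a filter on low counts neither passed (adjusted p = 0.0711 at 48 h and 0.0831 at 72 h). The call at 48 h was further lost with upper quartiles (adjusted p = 0.0557) and in a fit of the 8 libraries alone (adjusted p = 0.0929), and that at 72 h with a filter of 10 counts in each library (adjusted p = 0.0591). In the deposited normalized values, tested with limma as an alternative chosen after seeing the data, MUC1 passed at none of 12 h (-0.37, adjusted p = 0.0904), 48 h (-0.20, adjusted p = 0.437) and 72 h (-0.20, adjusted p = 0.389). In order of level, the control was followed by 72 h, 48 h, 12 h and 24 h, and the neighbours 72 and 48 h (adjusted p = 0.871) and 48 and 12 h (adjusted p = 0.0644) did not pass. The order of 48 and 12 h depends on the processing, since 7 alternatives took this difference past the threshold, scaling by library size (0.58, adjusted p = 0.000525) and upper quartiles (0.47, adjusted p = 0.00935) among them.

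MUC15, a small membrane mucin that was described in the milk fat globule membrane, had the deepest fall of the family and overlapped the control again at 48 h. Its 4 control libraries held 195, 203, 265 and 240 CPM (226 ± 32.7). At 12 h they held 13.1, 11.4, 12.9 and 12.2 CPM (12.4 ± 0.738), which is 18.2-fold lower, with a log2 fold change of -4.18 (SE 0.170, adjusted p = 7.86e-15). The SD of this group was 5.95% of its mean, so the low level was shared closely by all 4 libraries. At 24 h the libraries held 78.5, 47.2, 43.5 and 44.4 CPM (53.4 ± 16.8), still all below the controls, with a log2 fold change of -2.08 (SE 0.150, adjusted p = 1.56e-10). Replicate 1 stood above the other 3 libraries of this time. Between 12 and 24 h MUC15 rose by 2.11 on the log2 scale (adjusted p = 1.83e-09) and between 24 and 48 h by 2.17 (adjusted p = 3.47e-10). At 48 h the libraries held 221, 211, 264 and 269 CPM (241 ± 29.8), and they overlapped the control, with a log2 fold change of 0.10 (95% interval -0.18 to 0.37, adjusted p = 0.608). At 72 h they held 174, 190, 205 and 191 CPM (190 ± 12.5), of which 3 lay below all controls, with a log2 fold change of -0.25 (95% interval -0.53 to 0.03, adjusted p = 0.138). The step from 48 to 72 h was -0.34 (SE 0.142, adjusted p = 0.0647) with all 4 libraries below those of 48 h. It passed with scaling by library size only (-0.43, adjusted p = 0.0283), with scaling by upper quartiles (-0.38, adjusted p = 0.0385) and in a fit of these 8 libraries alone (adjusted p = 0.00627).

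MUC16, which carries the CA125 antigen and binds mesothelin, was the only one of the 6 members that passed as higher than the control at all 4 times. The control libraries held 17.7, 36.8, 20.3 and 26.0 CPM (25.2 ± 8.48). At 12 h they held 131, 137, 127 and 142 CPM (134 ± 6.44), with a log2 fold change of 2.41 (SE 0.344, adjusted p = 1.06e-05). At 24 h they held 165, 230, 500.1 and 188 CPM (271 ± 155), all above all libraries of the control and of 12 h. The log2 fold change against the control was then 3.42 (SE 0.354, adjusted p = 4.37e-07). Replicate 3 alone held 7800 counts of MUC16 in a library of less than the median depth. Without it, the change against the control at 24 h was 2.95 on the log2 scale, and the rise from 12 to 24 h of 1.01 (SE 0.320, adjusted p = 0.0144) became 0.53 (adjusted p = 0.0726). At 48 h the level was lower again, with 62.0, 106, 95.9 and 62.9 CPM (81.6 ± 22.5), and the step from 24 h was -1.73 (SE 0.326, adjusted p = 0.000382). These libraries still lay above all controls, with a log2 fold change of 1.69 (SE 0.340, adjusted p = 0.000695). At 72 h the libraries held 208, 162, 259 and 162 CPM (198 ± 45.9), a rise of 1.28 from 48 h (SE 0.323, adjusted p = 0.00584) and of 2.97 against the control (SE 0.349, adjusted p = 1.68e-06). In order of level, 24 h was followed by 72 h, 12 h, 48 h and the control. The neighbours 24 and 72 h (adjusted p = 0.280), 72 and 12 h (adjusted p = 0.133) and 12 and 48 h (adjusted p = 0.0573) did not pass, although all libraries of 72 h lay above and all of 48 h below those of 12 h. In a fit of the 8 libraries alone the last 2 differences passed (adjusted p = 0.0174 and 0.00150), and that of 48 h also passed with the DESeq2 test (adjusted p = 0.0409).

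MUC16 has the longest transcript among the members, so the level of other long transcripts was measured beside it. Over 590 other tested genes with a transcript of at least 10000 bases, 24 h replicate 3 lay 0.11 higher on the log2 scale than the shorter genes, each against its group mean, which was the highest such value of the 20 libraries. Control replicate 1, the library with the lowest MUC16 level, had the lowest value at -0.13. At 12, 24 and 72 h the library with the highest MUC16 level also had the highest value of its group. In the control and at 48 h the highest value was in another library, at 0.067 and 0.069. Against the control, the median log2 difference of the long genes was 0.13, 0.23, 0.01 and 0.05 at 12, 24, 48 and 72 h, beside -0.04, -0.01, 0.01 and -0.01 for the shorter genes. The rises of MUC16 were 2.47, 3.33, 1.71 and 3.00 on the same scale. Whether transcript length has a part in the values of MUC16 was not tested. In the authors' deposited normalized values, which carry a factor for each gene and library, MUC16 ranged from 3060 to 5288 at 24 h and from 468 to 1018 in the control. Replicate 3 was still the highest at 24 h. The means were 675 in the control and 3994.5 at 24 h, a smaller change than from 25.2 to 271 CPM. The log2 fold change at 12 h was 1.87 in these values and 2.41 in the main fit. At 48 h replicate 1 was lowest in CPM (62.0) and highest in the deposited values (2802).

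MUC20, a mucin known to bind the docking site of the receptor MET, fell first and then rose above the control. The control libraries held 11.4, 14.0, 10.4 and 11.4 CPM (11.8 ± 1.54). At 12 h they held 4.80, 5.18, 3.76 and 5.55 CPM (4.82 ± 0.772), with a log2 fold change of -1.29 (SE 0.126, adjusted p = 2.97e-09). At 24 h they held 7.56, 6.27, 6.73 and 6.74 CPM (6.83 ± 0.538), and the log2 fold change against the control was -0.79 (SE 0.121, adjusted p = 6.08e-06). All libraries of both times lay below all controls, and those of 24 h lay above those of 12 h (0.50, adjusted p = 0.00285). Between 24 and 48 h MUC20 rose 3.89-fold, a step of 1.96 on the log2 scale (SE 0.118, adjusted p = 6.56e-12), which took it across the control level. At 48 h the libraries held 31.6, 27.7, 22.9 and 24.4 CPM (26.7 ± 3.86), and at 72 h 34.0, 30.1, 30.1 and 31.4 CPM (31.4 ± 1.82). Every library of both late times lay above all controls, with log2 fold changes of 1.17 (SE 0.111, adjusted p = 6.60e-09) and 1.41 (SE 0.111, adjusted p = 1.01e-10). The levels of 48 and 72 h overlapped and did not pass in the test of their difference (0.24, adjusted p = 0.0830). This difference passed without 48 h replicate 1 (0.33, adjusted p = 0.0240).

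The genes that share sequence with MUC20 were measured beside it. The pseudogene MUC20P1 held 3.63 to 5.06% of the counts of MUC20 and MUC20P1 together in every group, and its own log2 fold changes were 1.21 at 48 h (adjusted p = 0.0141) and 1.13 at 72 h (adjusted p = 0.0168). MUC20-OT1, at 13.9 ± 0.995 CPM in the control, was higher at 12 h (log2 fold change 0.21, adjusted p = 0.0342, 3 of 4 libraries above all controls), where MUC20 was lower. This small rise of MUC20-OT1 depends on the scaling. With scaling by library size only, its libraries held 13.2 to 15.4 CPM at 12 h and 14.3 to 16.6 CPM in the control. At 72 h the log2 fold change of MUC20-OT1 was 0.44 (adjusted p = 9.91e-05). How much of the changes of MUC20, MUC20P1 and MUC20-OT1 comes from reads that match more than 1 gene was not tested.

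MUC4, a very large mucin that binds ERBB2 at the membrane, was near the limit of detection until 24 h and then appeared. The control libraries held 0, 2, 1 and 2 counts, and those of 12 h held 3, 2, 1 and 2 counts, so no fold change is given for 12 h. At 24 h the libraries held 1, 8, 2 and 2 counts, and the ratio to the control, after scaling by depth, was 3.09 (95% counting interval 1.03 to 11.1). The edgeR test did not pass at 24 h (adjusted p = 0.0608), and without replicate 2 the libraries of this time held at most 2 counts. It passed with a block for the replicate number (adjusted p = 0.0457) and without 24 h replicate 1 or 4 (adjusted p = 0.0227 and 0.0444). In the deposited normalized values, 24 h replicate 2 stood at 42 with its 8 counts, within the range of 29 to 63 at 48 h. At 48 h the counts were 18, 48, 40 and 30, or 1.56 ± 0.571 CPM. This level was 11.3 times the floor of 3 counts per control library, and the ratio to the control was 27.5 (95% counting interval 11.5 to 86.1). The edgeR fold for this difference was 24.9 (adjusted p = 1.73e-08). At 72 h the counts were 171, 118, 140 and 95, or 6.80 ± 0.736 CPM, which was 49.5 times the floor. The ratio to the control was 119.5 (95% counting interval 50.9 to 369.7), and the edgeR fold was 108 (adjusted p = 8.31e-13). From 48 to 72 h MUC4 rose 4.34-fold (95% counting interval 3.59 to 5.28, adjusted p = 7.67e-07), and all libraries of each late time lay above all of the time before. The counting intervals cover counting error only. MUC4 passed the filter on low counts only through its libraries of 48 and 72 h. Its calls at these times are therefore not independent of that filter. At 0.397 CPM per kb of its longest transcript, MUC4 remained at 72 h the lowest of the 5 tested members.

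MUC13, a mucin of the digestive tract with EGF-like domains, had 1 count in all, in 48 h replicate 2, and 0 counts in the other libraries. It was not tested, and at this depth up to 3 counts per library (0.116 to 0.192 CPM) cannot be distinguished from absence.

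**Figure D3:**
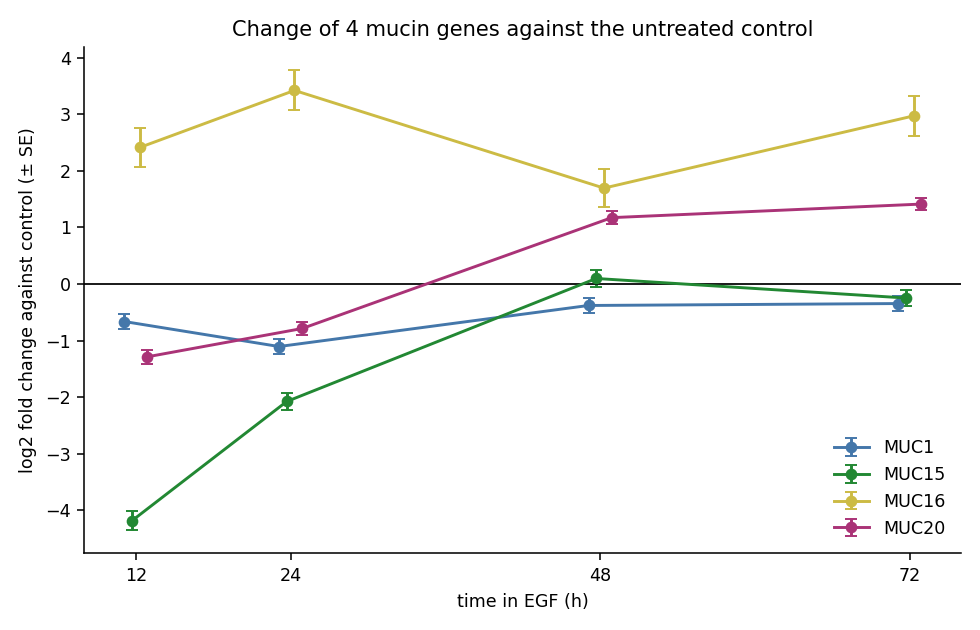
Points give the log2 fold change (± SE) of MUC1, MUC15, MUC16 and MUC20 against the control after each of the 4 times in EGF, from the edgeR fit; MUC4 is left out because its control libraries held 0 to 2 counts. MUC16 stays above 0 throughout, MUC15 returns from -4.18 to near 0, and MUC20 crosses from -1.29 to 1.41.

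In the step from 24 to 48 h all 5 tested members passed (4 higher, 1 lower), with 50.2% of all genes tested passing. MUC4, 1 of those higher, passed the filter on low counts only through its libraries of 48 and 72 h. Its calls in this step and from 48 to 72 h are not independent of that filter. The median log2 fold change over the members was 1.96, which is that of MUC20. From 12 to 24 h, 4 passed (3 higher, MUC1 lower), against 53.7% of all genes. In this step the call of MUC1 was lost with scaling by library size (-0.30, adjusted p = 0.0611) and upper quartiles (-0.33, adjusted p = 0.0786), and that of MUC16 in a fit of the 8 libraries alone (adjusted p = 0.0537). From 48 to 72 h, 2 passed as higher (MUC4 and MUC16), against 35.7% of all genes. MUC15 and MUC20 moved the same way in both of the first steps, while MUC16 rose and then fell, and MUC1 fell and then rose.

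As the members moved apart, their shares of the family changed. The summed CPM of all 6 genes was 395 ± 28.6 without EGF, then 235 ± 10.6 (12 h), 393 ± 151 (24 h), 453 ± 23.8 (48 h) and 530.03 ± 56.0 (72 h). Per kb of the longest transcript, which allows levels to be set against each other, MUC15 held 66.1 ± 7.01% of the family in the control and MUC1 29.5 ± 6.37%. At 12 h MUC1 led with 69.7 ± 1.21%, before MUC15 with 13.7 ± 1.34% and MUC16 with 10.7 ± 0.418%. At 48 h MUC15 was back at 68.0 ± 6.30%, and at 72 h it held 59.6 ± 3.23% with MUC20 at 10.9 ± 0.800%. Coding transcripts of MUC1 range from 516 to 4170 bases and those of MUC16 from 2888 to 43816, so the shares per kb depend on the transcripts that these cells use, which was not measured. The counts of MUC16 divided by those of MUC15 within a library need no scaling between libraries. Its range was 0.0765 to 0.182 in the control, 9.88 to 12.0 after 12 h, 2.10 to 11.5 after 24 h, 0.233 to 0.502 after 48 h and 0.849 to 1.26 after 72 h. Libraries of the control, of 48 h and of 72 h did not overlap in it, and those of 12 and 24 h did.

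**Figure D4:**
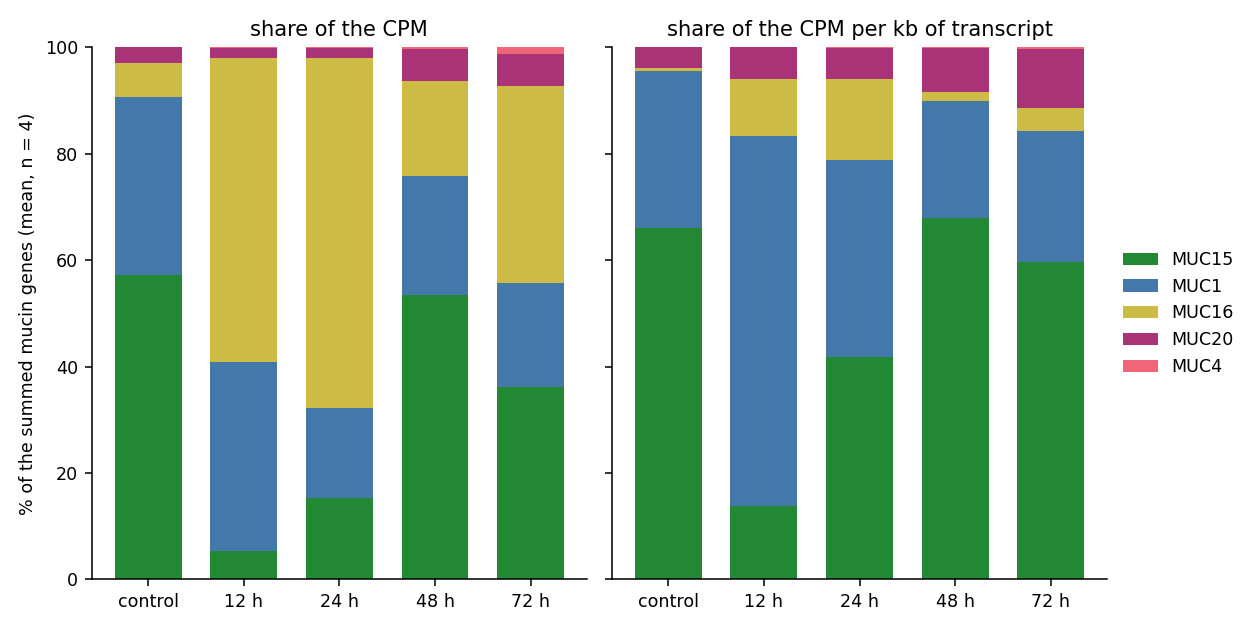
Stacked bars give the mean share (%, n = 4) of each mucin gene in the summed family for the control and the 4 times in EGF, as share of the CPM on the left and of the CPM per kb of longest transcript on the right; MUC13 is left out at 1 count. MUC16 holds 57.1% of the CPM at 12 h but 10.7% per kb, since its transcript is long, and MUC15 holds 66.1% per kb in the control and 13.7% at 12 h.

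Most other mucin genes were too low to test. For this and the following lists, the shares of all genes that passed were 69.4, 58.8, 45.8 and 61.6% at 12, 24, 48 and 72 h, of which 32.9, 29.2, 24.0 and 30.6% as higher and 36.5, 29.6, 21.8 and 31.0% as lower. Of 11 further transmembrane mucins and mucin-like sialomucins, 5 were tested, and 2 were higher and 2 lower at 12 h, 0 and 2 at 24 h, and 0 and 1 at 48 and at 72 h. None of these 5 passed at all 4 times. MCAM, an adhesion molecule, had a log2 fold change of 1.02 at 12 h (adjusted p = 0.000188), and CD164, a sialomucin, one of -0.27 (adjusted p = 0.00132). TMEM123, a sialomucin also called porimin, had a log2 fold change of -0.57 at 72 h (adjusted p = 0.000245). Among 8 secreted mucin genes, 3 were tested. MUCL1, a small breast mucin, stood at 77.1 ± 2.82 CPM without EGF and fell to 47.8 ± 5.25, 22.1 ± 1.73, 10.3 ± 1.30 and 4.06 ± 0.633 CPM, with log2 fold changes of -0.69, -1.80, -2.91 and -4.24 (adjusted p between 1.17e-19 and 3.04e-07). OVGP1, the oviduct mucin, had 2.40 ± 0.349 CPM at 12 h against 9.16 ± 1.09 without EGF (log2 fold change -1.93, adjusted p = 1.33e-11) and 9.70 ± 1.16 CPM at 48 h (adjusted p = 0.615). It was also lower at 24 h (-1.19, adjusted p = 3.77e-08) and at 72 h (-0.42, adjusted p = 0.00580). MUC5B, a gel-forming airway mucin, had log2 fold changes of 1.01 at 24 h (adjusted p = 0.0146) and 1.10 at 72 h (adjusted p = 0.00779). MUC5AC had no count in any library.

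Among the enzymes that build the O-glycans of mucins, those that add sialic acid or fucose were called higher more often than lower. Among 13 tested sialyl- and fucosyltransferases, 9, 9, 7 and 9 were higher and 0, 1, 2 and 2 lower at the 4 times, with a median log2 fold change of 0.84, 0.68, 0.60 and 0.95 beside -0.05, -0.01, 0.01 and -0.01 over all genes tested. ST6GALNAC2, which adds sialic acid to the first sugar, rose from a mean of 44.5 ± 2.68 to one of 150.0 ± 7.56 CPM by 72 h (log2 fold change 1.75, adjusted p = 5.00e-17). FUT3 and FUT6, fucosyltransferases of the Lewis antigens, had log2 fold changes of 1.64 and 2.07 at 72 h (adjusted p = 2.08e-12 and 6.38e-09), and FUT1 and ST3GAL4 also passed as higher at all 4 times. FUT4 was higher at 12 h (1.43, adjusted p = 1.14e-06) and lower at 48 and 72 h (-0.63 and -0.62, adjusted p = 0.0260 and 0.0237), and ST6GAL1 was lower from 24 h on. Of 7 tested core and branching enzymes, 6, 4, 3 and 3 were higher and 1, 1, 1 and 0 lower. GCNT3, which makes the branched core structures of mucins, had 0.467 ± 0.284 CPM without EGF, 5.42 ± 0.503 after 12 h and 25.0 ± 2.10 after 72 h, with log2 fold changes of 3.49 and 5.70 (adjusted p = 5.07e-12 and 9.33e-17). C1GALT1 and B3GNT3 rose at all 4 times, with log2 fold changes of 0.24 to 0.75 and 0.46 to 1.23, while the chaperone C1GALT1C1 was lower at 12, 24 and 48 h.

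The GALNT enzymes place the first sugar. Of 10 tested GALNT genes, 4, 2, 2 and 2 were higher and 4, 4, 5 and 6 lower, so that 8, 6, 7 and 8 of 10 passed, which at 12 and 24 h is near the share of all genes. GALNT3 and GALNT14 had log2 fold changes of 1.31 and 1.24 at 12 h (adjusted p = 2.74e-09 and 1.03e-12), and GALNT14 passed as higher at all 4 times. GALNT12, GALNT10 and GALNT7 were lower at all 4 times. GALNT12 had 27.5 ± 2.04 CPM without EGF and 6.90 ± 0.162 after 12 h (log2 fold change -1.997, adjusted p = 2.81e-15).

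**Figure D5:**
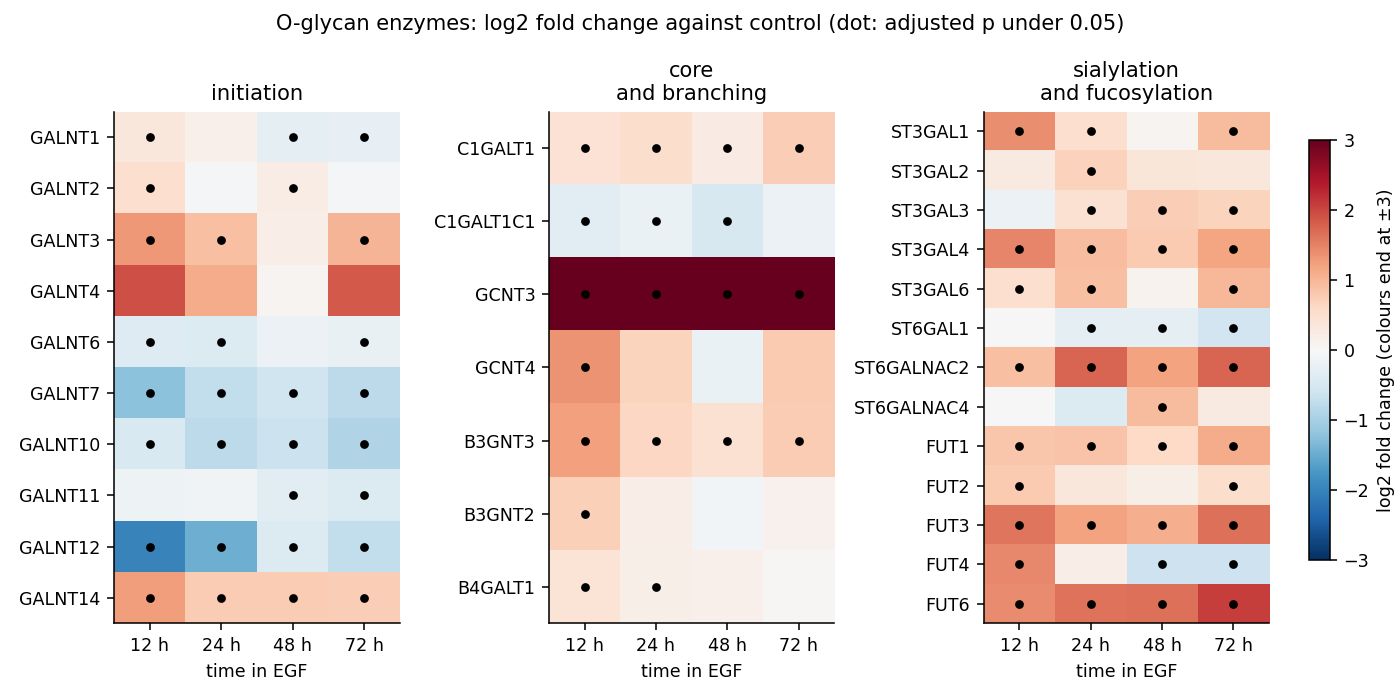
Each cell gives the log2 fold change of 1 tested O-glycan enzyme gene against the control after each time in EGF (red higher, blue lower, colours ending at ±3), with a dot where the adjusted p was under 0.05. GCNT3 lies beyond the end of the scale at all 4 times (3.49 to 5.70), most sialyl- and fucosyltransferases are red, and GALNT7, GALNT10 and GALNT12 are blue throughout.

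Genes whose products bind or anchor transmembrane mucins, or cut the extracellular part of membrane proteins, changed in both directions. The actin linkers EZR and MSN rose at all 4 times, EZR to 274 ± 6.11 CPM at 12 h against 99.3 ± 3.08 without EGF (log2 fold change 1.46, adjusted p = 1.86e-14), and their partner SLC9A3R1 was lower at all 4 times. ADAM9, a membrane protease, had a log2 fold change of 1.81 at 12 h (adjusted p = 3.16e-14) and BACE1, another one, had -0.88 at the same time (adjusted p = 6.79e-12), while ADAM10 had -0.29 at 72 h (adjusted p = 0.00196). MMP14, which cleaves MUC1, passed as higher at all 4 times. Of the galectins, which bind glycans on mucins, LGALS1 and LGALS8 rose and LGALS9 fell at all 4 times. Mesothelin, the partner of MUC16, was below the filter, with a mean of 0.472 ± 0.121 CPM in the control.

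The receptors that mucins bind were EGFR and MET, which rose at all 4 times, ERBB3, which fell at all 4, and ERBB2, which fell at 12, 24 and 72 h. EGFR had 3474 ± 103 CPM without EGF and 11752 ± 323 after 12 h (log2 fold change 1.76, adjusted p = 1.72e-16). MET, the partner of MUC20, had log2 fold changes of 2.72, 1.99, 1.12 and 1.86 at the 4 times, of which the first 2 stood beside a lower and the last 2 beside a higher MUC20. ERBB2, the partner of MUC4, had log2 fold changes of -1.28 (adjusted p = 9.88e-08), -0.83 (adjusted p = 4.99e-05), -0.25 (adjusted p = 0.174) and -0.97 (adjusted p = 6.89e-06), and at 72 h it was at 11.1 ± 1.94 CPM while MUC4 was at 6.80 ± 0.736 CPM. ERBB3 had log2 fold changes of -0.67 to -0.33. CTNNB1, the beta-catenin that the tail of MUC1 binds, was higher at 12 and 24 h (0.78 and 0.31) and lower at 48 and 72 h (-0.36 and -0.36).

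The other neighbours of MUC4 and MUC20 at their locus on chromosome 3 were TNK2 and the pseudogenes SDHAP1 and SDHAP2. TNK2, a kinase gene, was higher at all 4 times, with 2.09 ± 0.429 CPM without EGF and 6.27 ± 0.389 after 12 h (log2 fold change 1.58, adjusted p = 6.44e-09), when MUC20 was lowest. SDHAP1 had log2 fold changes of 0.53 at 24 h (adjusted p = 0.0485) and 0.68 at 72 h (adjusted p = 0.0111). SDHAP2 had counts at 12 h only and was not tested. Of the 75-base windows of MUC20-OT1, 46.8% also occurred in other genes, SDHAP1 and SDHAP2 among them. The part of such shared reads in the values of these genes was not tested.

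For each member, the genes with the most similar course were taken by Pearson's r of the log2 CPM over the 20 libraries among 10783 genes with a mean of at least 5 CPM. The points share libraries and 5 groups, so r describes the likeness and is not tested. Closest to MUC1 were LAGE3 and PI4KB (r = 0.94 for both). For MUC15 they were ATM (r = 0.99), and AL035661.1 (r = 0.98). The genes nearest to MUC16 were NAV1 and MACF1 (r = 0.97 for both). MUC20 was most like C2 and CCDC80 (r = 0.98 for both), and MUC4 most like CASC8 (r = 0.97) and KIAA0513 (r = 0.96).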

How the data were processed

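RNA from MDA-MB-468 cells was made into Lexogen Corall mRNA libraries and read as single ends of 75 bases on an Illumina NS500, per the labels and the methods of the study. The authors deposited 1 table per comparison, each of the same 60271 genes, with an estimated count per library, given as whole numbers, and a normalized value, a score on the scale of counts that differs from them by a factor for each gene and library. The counts were identical in all 10 tables. The build is hg38 and DESeq2 is named in the submitters' processing notes, and the aligner and the handling of molecular identifiers are not given in the sources used here. The authors' fold changes and p-values were not used.

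The counts were fitted in edgeR 4.0.16 (R 4.3.3) with filterByExpr, TMM scaling and the robust quasi-likelihood test, as 1 model of 20 libraries with 5 group means, and p values were adjusted by Benjamini-Hochberg over 16522 genes of 33535 with a count. The labels name the replicates biological, and p values measure the spread between them. Over 30 pairs of replicates the variance was 3.76 to 62.1 times counting noise. Log2 fold changes used a prior count of 0.125. MUC4 is given as a ratio of counts with an exact 95% interval. The procedure was tested on simulated data, in which far fewer genes changed than were called here.

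The members, the gene lists and the rule for named genes were chosen with earlier results of these data known. By that rule, list genes are named if they passed at all 4 times or had the largest rise or fall of their list with a mean of at least 1 CPM, and the neighbours, EGFR, ERBB2, ERBB3 and EZR always. Mesothelin and MUC5AC are named in addition, chosen after their values were seen. Alternatives were scaling by library size, upper quartiles or DESeq2 size factors, the DESeq2 1.42.0 Wald test, a filter of 1 count in all or of 10 counts in each library, a fit of the 8 libraries of a comparison alone, a block for the replicate number, leaving out each library, and, chosen after seeing the data, limma 3.58.1 on log2(value + 1) of the deposited normalized values. Gene models were taken from GENCODE 29, where 58036 of the gene IDs were found, all on the same chromosome, and promoter windows from RefSeq, where 4 of the 6 members matched. The level of 1 leukocyte marker is not reported here.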

Additional observations from a re-analysis of the deposited data

Results flagged for a closer look

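Of the 26 sets of 4 libraries tested for a library far from the others with Dixon's ratio, 2 passed. Chance alone flags about 1 set in 20 where values are normally distributed, which counts near 0 are not. MUC15 in 24 h replicate 1 stood at 78.5 CPM (1588 counts), and the other 3 libraries of that time at 43.5 to 47.2 CPM. Without that library the log2 fold change of MUC15 at 24 h against the control was -2.32, and it was -2.08 with it. MUC13 in 48 h replicate 2 stood at 0.0489 CPM, which is its single count, and the other 3 libraries at 0. Such a set passes this ratio whatever the value of the 1 library.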

How the results depend on the processing

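All 49 log2 fold changes of the members (5 genes, 10 comparisons, MUC4 at 12 h against the control left out) were recomputed under the alternatives, and 34 kept their direction and their side of the threshold in each of them. Of 822 alternative values, 767 did so, 22 newly passed, 26 no longer passed and 7 changed sign. The changes of sign were in results that did not pass: MUC4 at 24 h against 12 h without 24 h replicate 2 (leaving out each library gave -0.21 to 1.07), MUC16 at 72 h against 24 h without 24 h replicate 3 (-0.63 to 0.024), and MUC1 at 72 h against 48 h with library-size scaling (-0.052), with upper quartiles (-0.013) and without 48 h replicate 3 or 4 or 72 h replicate 1 (-0.045 to 0.16). The cause was not tested.

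The number of members called changed by more than 1.5 times with at least 10 counts in every library, which leaves out MUC4: 2 at 72 h against the control, where MUC1 did not pass either, and 1 at 72 h against 48 h. Of all 12886 genes tested with this filter, 8279 and 5030 were called in these 2 comparisons. Leaving out 1 library gave 4 members at 12 h, 4 to 5 at 24 h, 3 to 4 at 48 h and 3 to 4 at 72 h against the control, and 3 to 4, 5, and 2 to 3 in the successive steps. Of all 16780 to 16863 genes then tested, 11075 to 11487, 9105 to 9723, 6894 to 8088 and 9504 to 10256 were called against the control. In the steps 8150 to 8484, 7440 to 8284 and 4912 to 5818 were called.

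The replicate numbers did not pair the samples: over 40 pairs of libraries with the same number, the correlation of their deviations from the group means had a median of 0.0459 (-0.505 to 0.714), and 6 of 20 libraries correlated best with their own number. With a block for the replicate number, 4, 5, 4 and 4 members were called against the control, and 4, 5 and 3 in the successive steps. Of all 16522 genes tested, the block called 11577, 9868, 7829 and 10310 against the control, and the main fit 11465, 9717, 7562 and 10177. In the steps the block called 9094, 8558 and 6175 genes, and the main fit 8879, 8292 and 5906. The added calls of members under the block were MUC4 at 24 h against the control (adjusted p = 0.0457), MUC20 at 72 h against 48 h (adjusted p = 0.0448), and MUC1 and MUC16 at 48 h against 12 h (0.27 and -0.77, adjusted p = 0.0461 and 0.0305).

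Depth limits MUC4 up to 24 h and MUC13 throughout, both at or near 3 counts per library.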
